A study of Mus musculus with 9 samples.

Results

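Collagen genes were followed through differentiation of C2C12 cells, a mouse myoblast line, after knockdown of Cry1 or Cry2. The collagen genes were defined as every gene whose symbol has the form of a collagen chain name (Col, a number, a, a number). There were 44 of them among the 47728 genes counted. Of these, 41 had at least 1 count, and 27 reached 10 counts in at least 3 of the 9 libraries and are described here. Collagens are secreted or membrane proteins built from 3 chains wound into a triple helix. Fibrillar collagens form the rope-like fibrils of connective tissue, type IV forms the sheet of the basement membrane around each muscle fibre, and type VI forms beaded filaments that link that sheet to the fibrils. Other classes coat fibrils (the FACIT collagens, fibril-associated collagens with interrupted triple helices), span the cell membrane, or bridge basement membranes and fibrils (the multiplexins). Myoblasts make collagens in culture, although in muscle tissue resident fibroblasts make much of the matrix.

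Cry1 and Cry2 encode cryptochromes, the repressors that close the negative feedback loop of the circadian clock. The study had 9 libraries of polyadenylated RNA: control, Cry1 knockdown and Cry2 knockdown cells, each at days 0, 3 and 5. Cells grew in medium with fetal bovine serum until day 0, when they were moved to horse serum with insulin, transferrin and selenium, which starts differentiation. The labels give a line, a genotype and a day, but neither the knockdown method nor the number of clones behind each genotype. Each genotype and day had 1 library, so a genotype was compared over its 3 days (n = 3 libraries per genotype) and a day over its 3 genotypes. A p-value for genotypes therefore sets their difference against how far it varied from day to day. A p-value for days sets the change against how far it varied between genotypes. None is set against replicate cultures. An effect of the knockdown cannot be told apart from any other difference between the 3 cultures.

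Library totals ran from 4731020 to 6412279 counts, and values below are CPM, that is counts scaled to a common library size with TMM factors. A library with 3 counts of a gene stands at 0.440 to 0.635 CPM, the level taken here as the floor. Both targets were lower in their own knockdown. Cry1 fell by 1.22 on the log2 scale (SE 0.22, adjusted p = 0.0265) in the Cry1 knockdown, and Cry2 fell by 1.74 (SE 0.17, adjusted p = 0.0138) in the Cry2 knockdown. All 10 myoblast and myotube markers reached 10 counts in 3 libraries, with a summed level between 2095 and 22003 CPM. Of the 10, 2 passed an adjusted p of 0.05 in edgeR in the Cry1 knockdown against control, where 2.67% of all genes did. They were Ckm, the muscle creatine kinase, and Pax7, a satellite cell factor, both higher (log2 0.84, adjusted p = 0.0452, and 0.92, adjusted p = 0.048). The median over the 10 was 0.65. In the Cry2 knockdown against control 0 of the 10 passed, where 0.0840% of all genes did, and the median was 0.07. At day 0 the myogenic factor Myog had 58.7 CPM in control, 179.7 CPM with Cry1 knocked down and 35.4 CPM with Cry2 knocked down, the same order of genotypes as Col1a1 below. That order was not shared by all 10 markers. Des had 1637 CPM in control, 1634 CPM with Cry1 knocked down and 1777 CPM with Cry2 knocked down at day 0. The part of these markers in the collagen results was not tested. Of 8 fibroblast markers, 5 reached 10 counts in 3 libraries, with Thy1 and Tcf21 at 0 throughout. The sum of all 8 was 113 to 195 CPM in control, 64.5 to 106 CPM with Cry1 knocked down and 81.7 to 99.2 CPM in the Cry2 knockdown. Adipocyte, endothelial, and macrophage and blood cell markers summed to at most 2.65, 4.26 and 2.35 CPM. Tendon and cartilage, osteoblast and smooth muscle markers summed to 175 to 256, 32.8 to 75.4 and 174 to 243 CPM over the 9 libraries. Of the 8 tendon and cartilage markers, only 2, Scx and Sox9, reached 10 counts in 3 libraries. So did 3 of the 6 osteoblast and 4 of the 5 smooth muscle markers. The part of the fibroblast markers in the collagen results was not tested. In bulk RNA, fewer cells of a type and less RNA per cell cannot be told apart. The Cry2 knockdown library of day 0 stood apart in a pair of mitochondrial genes, with 611 CPM of mt-Co2 against 4.11 to 12.9 CPM in the other libraries and 513 CPM of mt-Atp6 against 2.49 to 8.26 CPM.

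Collagen transcripts took a growing share of the libraries as the cells differentiated. In control cells they made up 1.19%, 2.11% and 2.71% of all counts at days 0, 3 and 5. The Cry1 knockdown libraries were close to control at 1.16%, 2.20% and 2.87%. The Cry2 knockdown libraries were below both at every day, at 0.949%, 1.53% and 2.12%. Shares and ratios of counts are given as descriptions, with no test. All further sets of 3 values are given in the same order of days. Fibrillar genes held 71.8% to 80.2% of the collagen counts in every library. The highest levels per kilobase of exon were those of Col3a1 (643 CPM per kilobase on average over the libraries), Col1a1 (358), Col1a2 (220), Col6a1 (203) and Col5a1 (180). The lowest of the 27 was Col11a2, at 0.226 CPM per kilobase. Within the collagen counts, type I genes held 37.4%, 31.1% and 32.5% of collagen counts in the Cry1 knockdown, against 26.4%, 22.3% and 22.6% in control and 22.0%, 21.4% and 23.8% in the Cry2 knockdown. The genotypes also differed in the ratio of Col3a1 to Col1a1 counts, which was 3.74, 3.58 and 3.68 in control and 1.48, 1.95 and 1.84 with Cry1 knocked down. In the Cry2 knockdown that ratio was 6.21, 3.77 and 2.65, so it fell with each day where the control held nearly the same value.

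**Figure D1:**
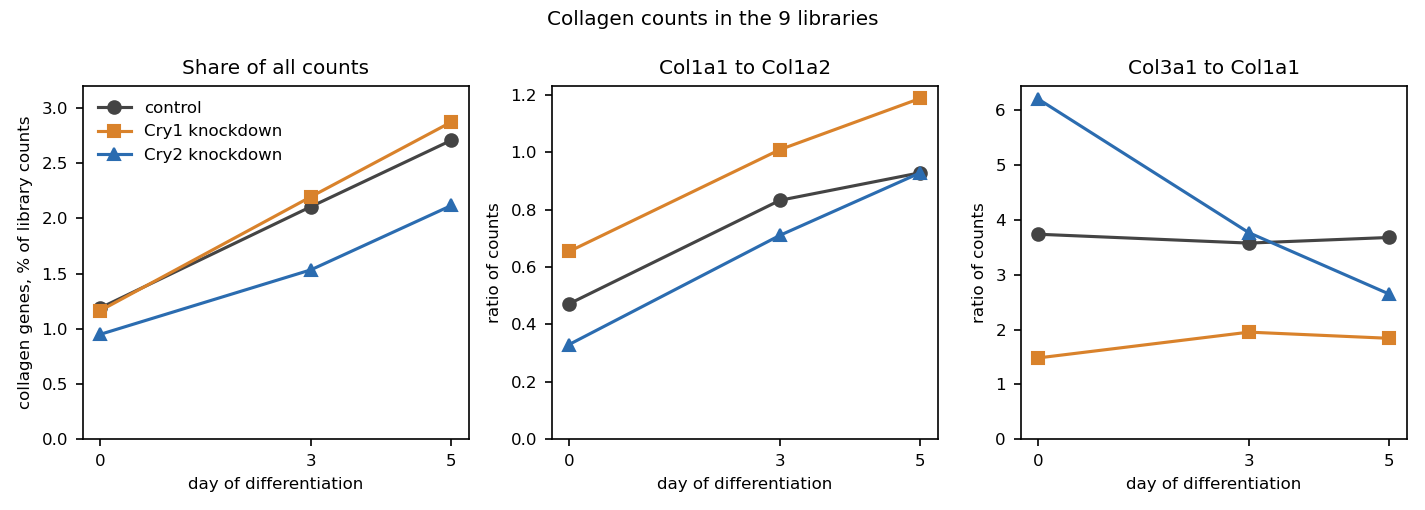
Share of collagen genes in all library counts (left, percent), and the ratio of counts of Col1a1 to Col1a2 (middle) and of Col3a1 to Col1a1 (right), against day of differentiation; each point is 1 library. The share goes from 0.949% to 1.19% at day 0 to 2.12% to 2.87% at day 5 and is lowest in the Cry2 knockdown at each day, while the Cry1 knockdown has the highest Col1a1 to Col1a2 ratio and the lowest Col3a1 to Col1a1 ratio at each day.

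The genotype comparisons ask which genes differ when either cryptochrome is knocked down. Between the Cry2 knockdown and control, 2 of the 29 collagen genes tested passed an adjusted p of 0.05, Col23a1 higher and Col4a1 lower; among all 13094 genes tested, 0.0840% passed, 0.0458% higher and 0.0382% lower. Between the Cry1 knockdown and control, 7 of 29 passed, against 2.67% of all genes. The 4 higher were Col11a1, Col14a1, Col25a1 and Col1a1, against 0.932% of all genes, and the 3 lower were Col6a3, Col16a1 and Col4a5, against 1.73%. The direct comparison of the 2 knockdowns had the most collagen calls, 16 of 29 against 7.93% of all genes. In it 13 collagen genes were lower in the Cry2 knockdown than in the Cry1 knockdown, against 3.69% of all genes, and 3 were higher, against 4.24%. The median log2 difference of the 29 genes was -0.29 for the Cry2 knockdown against control, with 22 of 29 below 0, and 0.20 for the Cry1 knockdown against control, with 18 of 29 above 0. Over all genes tested these medians were -7e-04 and 0.01. The direction differed between the knockdowns in 14 genes that were below control in the Cry2 knockdown and above it in the Cry1 knockdown, and in 3 genes the other way round; both comparisons use the same control libraries. Within single days, 15 of the 27 described genes were lower than control at all 3 days in the Cry2 knockdown and 3 were higher at all 3 days. In the Cry1 knockdown 6 were lower and 9 higher at all 3 days. Among all 12782 genes with the same minimum of counts, 16.0% were lower and 16.3% higher at all 3 days in the Cry2 knockdown. In the Cry1 knockdown 42.1% kept 1 direction, with 2553 of the 12782 genes lower and 2828 higher at all 3 days. Of the 20 collagen genes with 10 counts at every day in the Cry2 knockdown or its control, 11 were lower at all 3 days; Col11a1, Col24a1, Col25a1 and Col8a2 had fewer.

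With 1 library left out at a time, 7 of the 15 calls on described genes between the knockdowns held in all 9 fits: Col1a1, Col1a2, Col11a1, Col4a1, Col4a2, Col23a1 and Col25a1. None of the calls against control held in all 9. The 7 calls of the Cry1 knockdown held in 1 to 5 of the 9 fits. Each was lost when the day 3 or day 5 Cry1 knockdown library or the day 3 control was left out, and all but Col25a1 also without either day 0 library of these genotypes. Leaving out the day 5 control ended the calls of Col1a1, Col4a5, Col16a1 and Col25a1, and leaving out the day 3 Cry2 knockdown library those of Col1a1 and Col16a1. Col16a1 was lost without the day 5 Cry2 knockdown library too. Without the Cry2 knockdown library of day 0, Col23a1 and Col4a1 still passed against control, with log2 differences of 3.37 (SE 0.21, adjusted p = 0.00445) and -0.81 (SE 0.09, adjusted p = 0.0265). Between the knockdowns 10 of 29 collagen genes passed without that library, against 552 of all 13005 genes tested in that fit.

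**Figure D2:**
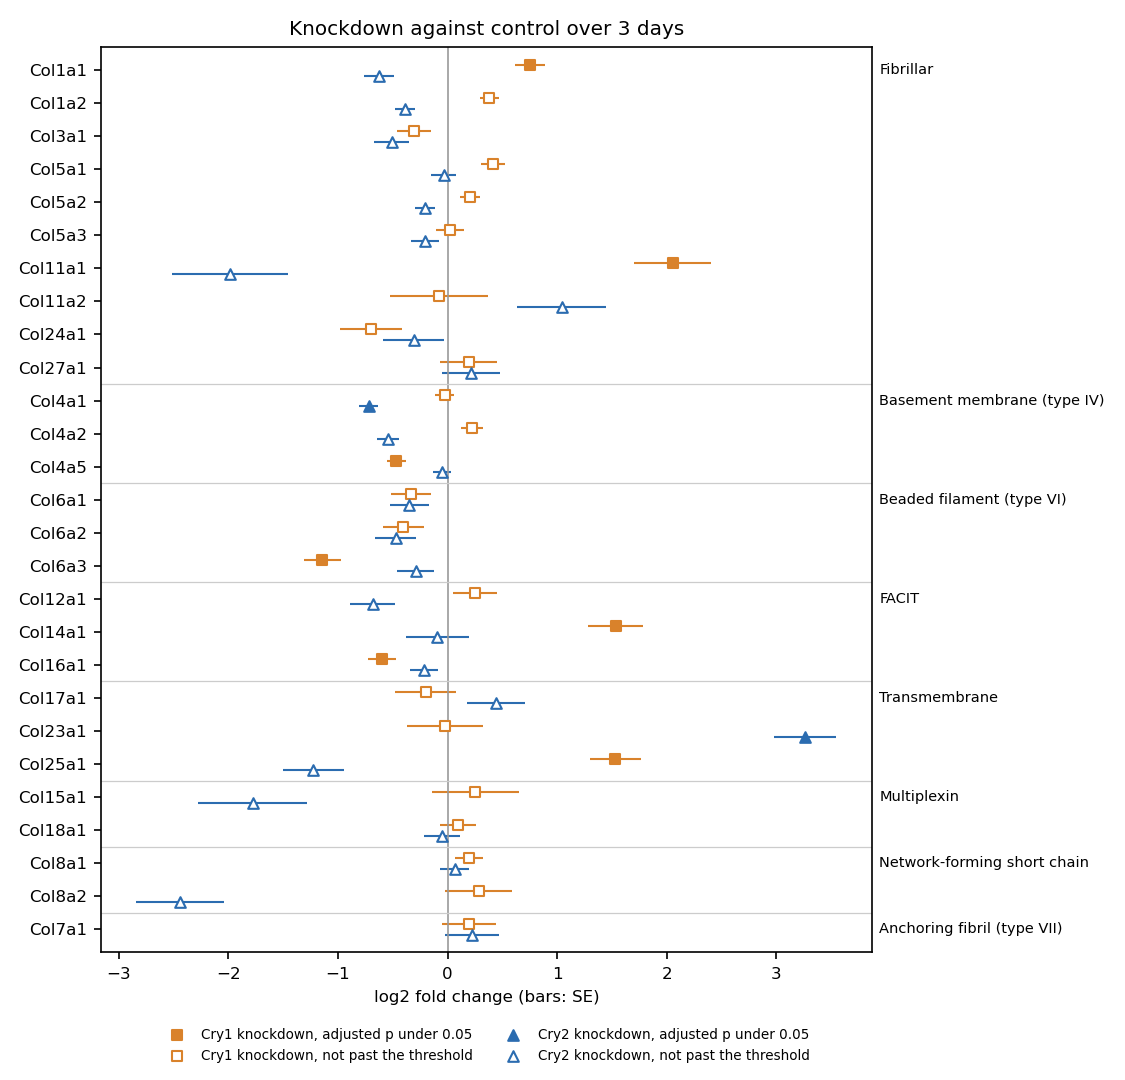
Log2 fold change of each described collagen gene in the Cry1 knockdown (squares) and the Cry2 knockdown (triangles) against control, over 3 days, with bars of 1 SE and genes grouped by class; filled marks passed an adjusted p of 0.05. The filled marks are 7 for the Cry1 knockdown, from -1.14 for Col6a3 to 2.05 for Col11a1, and 2 for the Cry2 knockdown, 3.27 for Col23a1 and -0.72 for Col4a1.

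Among the 10 fibrillar genes described, 2 were higher in the Cry1 knockdown than in control, against 0.932% of all genes. In the direct comparison 5 were lower in the Cry2 than in the Cry1 knockdown, against 3.69% of all genes. Between the Cry2 knockdown and control 0 passed in edgeR. An unadjusted p below 0.05 was seen in 5 of the 10, against 1604 of all 13094 genes. DESeq2 called 2 lower, Col1a1 and Col1a2, against 53 of 13094 genes. Col1a1 (ENSMUSG00000001506, chromosome 11, 94936224 to 94953042 on the plus strand of mm10) encodes the major chain of type I collagen, the main fibril protein of bone, tendon and muscle connective tissue. It stood at 947, 2171 and 3099 CPM in control, at 1634, 3451 and 5398 CPM in the Cry1 knockdown, and at 486, 1366 and 2573 CPM with Cry2 knocked down. At each day the order was Cry2 knockdown, control, Cry1 knockdown, although the ranges over days overlapped. The log2 difference from control was 0.75 (SE 0.14, adjusted p = 0.0316) in the Cry1 knockdown and -0.62 (SE 0.14, adjusted p = 0.165) in the Cry2 knockdown. Between the knockdowns it was -1.38 (SE 0.14, adjusted p = 0.00165). Col1a2 (ENSMUSG00000029661, chromosome 6, 4504814 to 4541544, plus strand), the partner chain in the same trimer, had the same order at each day with smaller gaps. Its levels were 2006, 2606 and 3335 CPM in control, 2496, 3415 and 4541 CPM with Cry1 knocked down and 1472, 1922 and 2769 CPM with Cry2 knocked down. Neither knockdown passed against control (log2 0.38, adjusted p = 0.063, and -0.38, adjusted p = 0.170), but they differed from each other by -0.77 (SE 0.09, adjusted p = 0.00278). The ratio of Col1a1 to Col1a2 counts was higher at each later day in every genotype, at 0.472, 0.833 and 0.929 in control, 0.655, 1.01 and 1.19 with Cry1 knocked down and 0.330, 0.711 and 0.929 with Cry2 knocked down.

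Col3a1 (ENSMUSG00000026043, chromosome 1, 45311538 to 45349706, plus strand) encodes the homotrimeric type III collagen that mixes with type I in distensible tissue. Its levels were 3541, 7766 and 11407 CPM in control, 2420.3, 6736 and 9926 CPM with Cry1 knocked down and 3015, 5147 and 6806 CPM with Cry2 knocked down. Unlike Col1a1, it was below control at every day in both knockdowns, but neither difference passed (log2 -0.31, adjusted p = 0.331, and -0.51, adjusted p = 0.253). Type V chains start type I fibrils and limit their width. Col5a1 had 578, 1531 and 1998 CPM in control, 798, 1911 and 2736 CPM with Cry1 knocked down and 517, 1323 and 2374 CPM with Cry2 knocked down. Col5a2 had 892, 1016 and 1408 CPM, then 1136, 1212 and 1419 CPM, then 792, 935 and 1132 CPM, in the same order of genotypes. Both were lower in the Cry2 than in the Cry1 knockdown, Col5a1 by a log2 difference of -0.45 (adjusted p = 0.0418) and Col5a2 by -0.41 (adjusted p = 0.0308). Each call held in 3 of the 9 fits with a library left out. That of Col5a1 ended when any of the 3 Cry1 knockdown libraries was omitted, as it did for the Cry2 knockdown libraries of days 0 and 3 or the day 0 control, and that of Col5a2 when any of the 6 knockdown libraries was omitted.

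Col11a1 (ENSMUSG00000027966, chromosome 3, 114030540 to 114220718, plus strand), a chain of the type XI fibrils known from cartilage and closely related to type V, had the largest difference between the knockdowns of the fibrillar genes. It had 0.880, 1.01 and 9.81 CPM in control, 5.48, 8.65 and 27.2 CPM with Cry1 knocked down and 0.646, 0.635 and 1.13 CPM with Cry2 knocked down. The Cry1 knockdown was the highest at every day, and its lowest library was above the highest Cry2 knockdown library, which stayed near the floor. The log2 difference from control was 2.05 (SE 0.35, adjusted p = 0.0228) in the Cry1 knockdown. In the Cry2 knockdown it was -1.98 (adjusted p = 0.197), and between the knockdowns it was -4.04 (SE 0.46, adjusted p = 0.00249). The fibrillar genes Col5a3, Col11a2, Col24a1 and Col27a1 passed in no genotype comparison.

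**Figure D3:**
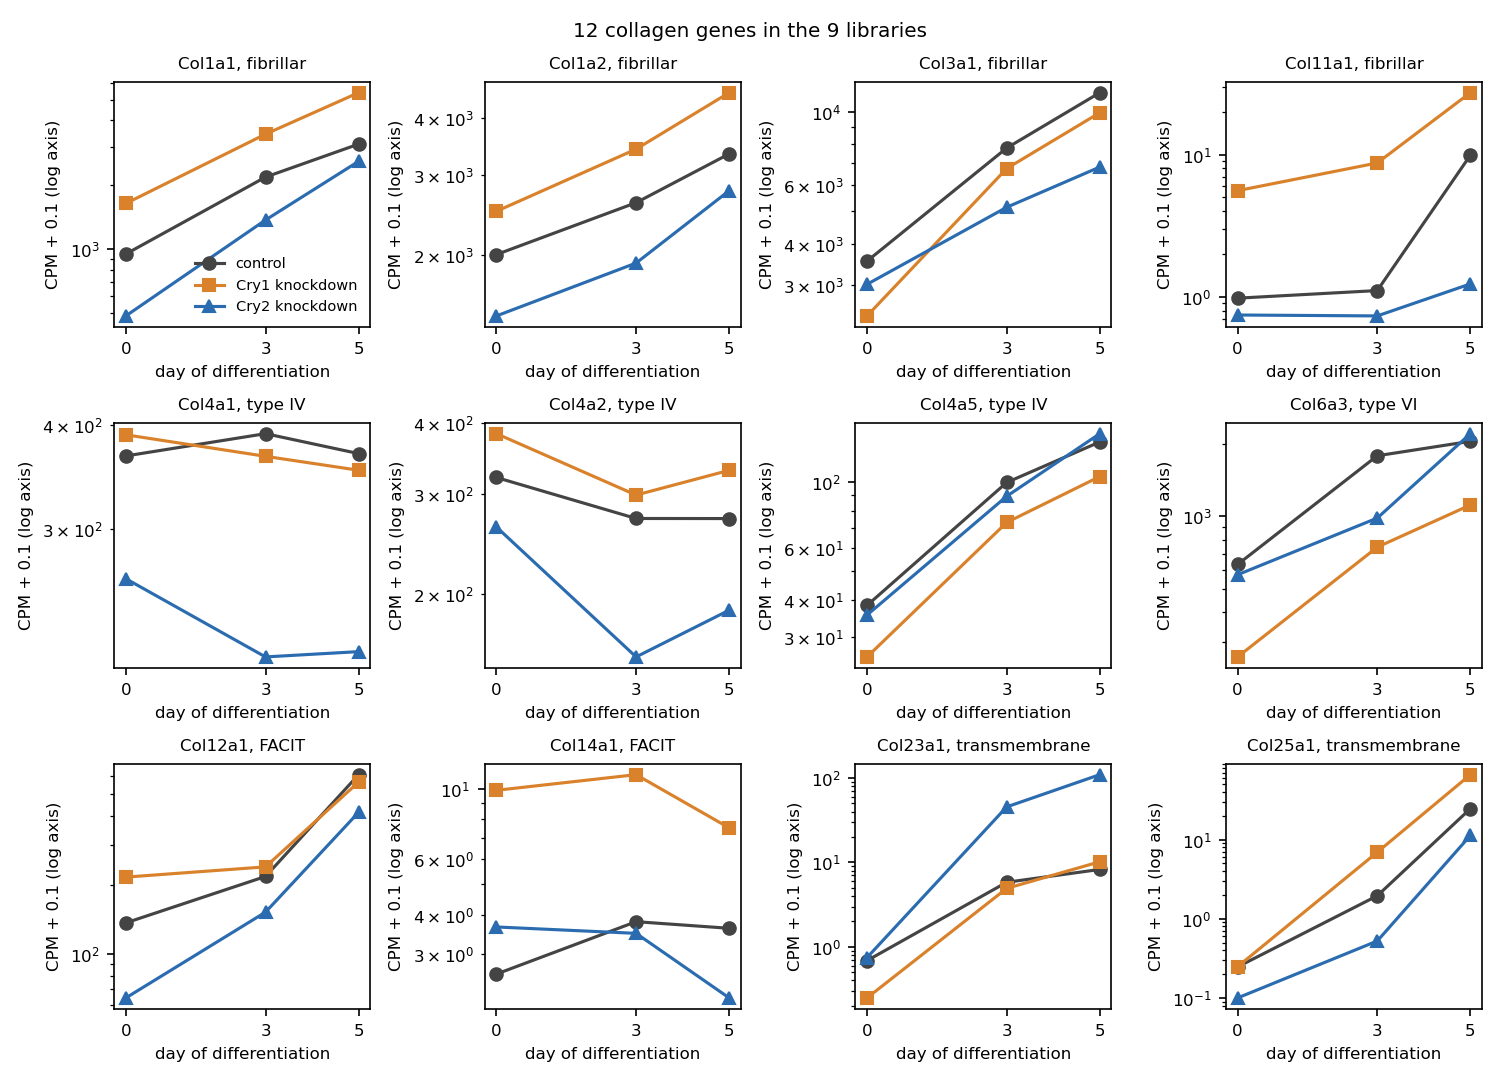
Levels of 12 collagen genes (CPM plus an offset of 0.1, log axis that differs between panels) against day of differentiation in control (circles), Cry1 knockdown (squares) and Cry2 knockdown (triangles); each point is 1 library. In Col1a1, Col1a2 and Col11a1 the Cry1 knockdown is highest and the Cry2 knockdown lowest at every day, Col4a1 and Col4a2 are lowest in the Cry2 knockdown at every day, and Col23a1 in the Cry2 knockdown climbs from 0.646 to 45.3 and 109 CPM.

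Of the 3 type IV genes described, the pair that makes up the common basement membrane trimer was low in the Cry2 knockdown. Col4a1 (ENSMUSG00000031502, chromosome 8, 11198423 to 11312826, minus strand) was almost flat in control at 367, 390.5 and 369.6 CPM and in the Cry1 knockdown at 389, 367 and 353 CPM. With Cry2 knocked down it had 262, 211 and 214 CPM, and no library of that genotype reached the lowest of the others. The log2 difference from control was -0.72 (SE 0.09, adjusted p = 0.0448) in the Cry2 knockdown, a call kept in 2 of the 9 fits with a library left out, those that omitted a knockdown library of day 0. Against the Cry1 knockdown it was -0.69 (SE 0.09, adjusted p = 0.00378), which held in all 9. Col4a2 (ENSMUSG00000031503, chromosome 8, 11312805 to 11449287, plus strand), the second chain of that trimer, had 321, 272 and 271 CPM in control, 383, 299 and 330.2 CPM with Cry1 knocked down and 262, 155 and 187 CPM with Cry2 knocked down. Here too the 3 Cry2 knockdown libraries were the 3 lowest. The difference from control was -0.54 (SE 0.10, adjusted p = 0.105), and that from the Cry1 knockdown -0.76 (SE 0.10, adjusted p = 0.00436).

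The 2 genes lie head to head, and in the RefSeq start sites on GRCm38.p6 their first bases overlap. The shared stretch, shown because a single short region holds both starts, is chr8:11312805-11312826, 22 bases long and written on the plus strand.
Col4a1 and Col4a2 starts: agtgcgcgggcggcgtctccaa
The library kit does not mark strand, so reads from the overlap cannot be assigned to one gene, but exons shared with another gene cover 0.295% of the exon bases of Col4a1 and 0.982% of those of Col4a2.

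Col4a5 (ENSMUSG00000031274, chromosome X, 141475385 to 141689234, plus strand), a chain of the other type IV networks, moved differently from the pair. It was higher at each later day in every genotype, with 38.1, 99.5 and 136 CPM in control, 25.5, 72.8 and 104 CPM with Cry1 knocked down and 35.4, 89.3 and 146 CPM with Cry2 knocked down. It was lowest in the Cry1 knockdown at each day, with a log2 difference from control of -0.47 (SE 0.08, adjusted p = 0.0288), and higher in the Cry2 than in the Cry1 knockdown by 0.41 (SE 0.08, adjusted p = 0.0225). The last call held in 4 of the 9 fits, being lost without any Cry1 knockdown library or the Cry2 knockdown library of day 0 or day 5. The ratio of Col4a5 to Col4a1 counts went from 0.104 to 0.255 and 0.369 in control, from 0.0655 to 0.199 and 0.295 in the Cry1 knockdown and from 0.135 to 0.424 and 0.680 with Cry2 knocked down.

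Type VI collagen is a trimer of different chains that anchors the muscle basement membrane, and its genes are the ones mutated in Ullrich and Bethlem muscle disease. Of the 3 genes described, Col6a3 (ENSMUSG00000048126, chromosome 1, 90765923 to 90843971, minus strand) was lower in the Cry1 knockdown. Its levels were 632, 1781 and 2044 CPM in control, 261, 745 and 1114 CPM with Cry1 knocked down and 572, 983 and 2199 CPM with Cry2 knocked down. The Cry1 knockdown was lowest at every day. The log2 difference from control was -1.14 (SE 0.17, adjusted p = 0.0157), and the Cry2 knockdown was higher than the Cry1 knockdown by 0.85 (SE 0.17, adjusted p = 0.0201), which was lost when the same 5 libraries as for Col4a5 were left out. The fibroblast marker Dpt, which is also made by other mesenchymal cells, was lower in the same comparison with control (log2 -1.75, SE 0.17, adjusted p = 0.0046), and its part in the result was not tested. Col6a1 had 541, 1072 and 1274 CPM in control, 269.6, 1059 and 1297 CPM with Cry1 knocked down and 318, 957 and 1227 CPM with Cry2 knocked down. Col6a2 had 243, 806 and 813 CPM, then 119, 743 and 791 CPM, then 116, 684 and 763 CPM. These 2 genes were below control mainly at day 0, in both knockdowns, and passed in no genotype comparison. The ratio of Col6a3 to Col6a1 counts was 1.17, 1.66 and 1.60 in control, 0.969, 0.704 and 0.859 with Cry1 knocked down and 1.80, 1.03 and 1.79 with Cry2 knocked down.

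Of the 3 FACIT genes described, 1 was higher and 1 lower in the Cry1 knockdown than in control, where 2.67% of all genes passed. Between the knockdowns 2 were lower in the Cry2 knockdown, against 3.69% of all genes. Col12a1 (chromosome 9, 79598991 to 79718831, minus strand), whose product coats type I fibrils in muscle and tendon, had 137, 218 and 608 CPM in control, 217, 240.3 and 565 CPM with Cry1 knocked down and 64.1, 152 and 416 CPM with Cry2 knocked down. It was lowest in the Cry2 knockdown at each day and lower there than in the Cry1 knockdown (log2 -0.94, adjusted p = 0.029), a call that ended when the Cry2 knockdown library of day 0 or day 3, the Cry1 knockdown library of day 3 or the day 0 control was omitted. Col14a1 (ENSMUSG00000022371, chromosome 15, 55307750 to 55520803, plus strand), a related fibril-coating collagen, was higher in the Cry1 knockdown. Its levels were 2.49, 3.70 and 3.52 CPM in control, 9.78, 11.0 and 7.42 CPM with Cry1 knocked down and 3.55, 3.39 and 2.08 CPM with Cry2 knocked down. The Cry1 knockdown libraries did not overlap with the others, and the log2 difference was 1.54 (SE 0.25, adjusted p = 0.0203) against control. Between the Cry2 and the Cry1 knockdown it was -1.63 (adjusted p = 0.00841; 0.0537 with the day 3 Cry1 knockdown library omitted). Col16a1 (ENSMUSG00000040690, chromosome 4, 130047840 to 130099283, plus strand), found beside fibrils and in cell-matrix contacts, had 49.7, 35.3 and 46.3 CPM in control, 29.2, 27.3 and 29.5 CPM with Cry1 knocked down and 49.4, 29.0 and 35.0 CPM with Cry2 knocked down. It was lower in the Cry1 knockdown by a log2 difference of -0.60 (SE 0.13, adjusted p = 0.0498), and that call was kept in 1 of the 9 fits with a library left out and was not made by DESeq2.

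Of the transmembrane collagens, Col23a1 was high in the Cry2 knockdown and Col25a1 in the Cry1 knockdown. Col23a1 (ENSMUSG00000063564, chromosome 11, 51289920 to 51583918, plus strand) encodes a membrane collagen whose outer part can be shed. It had 0.587, 5.71 and 8.15 CPM in control, 0.148, 4.82 and 10.1 CPM with Cry1 knocked down and 0.646, 45.3 and 109 CPM with Cry2 knocked down. The counts behind these values were 4, 34 and 44 in control, 1, 29 and 57 with Cry1 knocked down and 4, 214 and 578 with Cry2 knocked down. At day 0 all 3 libraries were near the floor, and the Cry2 knockdown separated from the others at days 3 and 5. The log2 difference over the 3 days was 3.27 (SE 0.28, adjusted p = 0.00758) against control and 3.29 (SE 0.28, adjusted p = 0.00126) against the Cry1 knockdown. The call against control ended when any day 3 or day 5 library of its 2 genotypes was omitted (adjusted p up to 0.246), with log2 differences between 2.78 and 3.48 over the 9 fits.

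Col25a1 (ENSMUSG00000058897, chromosome 3, 130131501 to 130599877, plus strand) encodes a membrane collagen that developing muscle needs for its innervation by motor axons. It had 0.147, 1.85 and 24.4 CPM in control, 0.148, 6.82 and 65.9 CPM with Cry1 knocked down, and 0, 0.423 and 11.2 CPM with Cry2 knocked down. At day 0 these rest on 1, 1 and 0 counts. From day 3 the Cry1 knockdown was the highest and the Cry2 knockdown the lowest. The log2 difference from control was 1.53 (SE 0.23, adjusted p = 0.0163) in the Cry1 knockdown and -1.22 (adjusted p = 0.167) in the Cry2 knockdown, and the difference between the Cry2 and the Cry1 knockdown was -2.75 (SE 0.26, adjusted p = 0.00135). Col17a1, the membrane collagen of hemidesmosomes, had 2.04 to 6.99 CPM and passed in no genotype comparison.

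Among the multiplexins and the short-chain network collagens, the less abundant gene of each pair passed between the knockdowns, where 7.93% of all genes did. Of the multiplexins, Col18a1, whose C-terminal fragment is endostatin, had 308 to 673 CPM and passed in no genotype comparison. Col15a1, which links basement membrane to fibrils in muscle, had 0.440, 6.55 and 7.22 CPM in control, 0.148, 6.32 and 11.8 CPM with Cry1 knocked down and 0.484, 1.69 and 1.70 CPM with Cry2 knocked down. Its Cry2 knockdown level was lowest at days 3 and 5, and the difference from the Cry1 knockdown was -2.03 on the log2 scale (SE 0.49, adjusted p = 0.0375). That call was kept in 3 of the 9 fits, ending when any knockdown library of day 3 or 5 or the control of day 0 or 5 was omitted. Of the short-chain network collagens, Col8a1 had 106 to 899 CPM and passed in no genotype comparison. Col8a2 (ENSMUSG00000056174, chromosome 4, 126286793 to 126314330, plus strand), its partner in hexagonal networks, had 0.293, 4.37 and 21.3 CPM in control, 0.445, 8.98 and 17.8 CPM with Cry1 knocked down and 0, 1.48 and 2.83 CPM with Cry2 knocked down. It differed between the Cry2 and the Cry1 knockdown by -2.73 (SE 0.40, adjusted p = 0.00608), a call that ended when the day 5 Cry2 knockdown library was omitted (adjusted p = 0.0721). Against control the difference was -2.44 (SE 0.40, adjusted p = 0.0817). Col7a1, the collagen of anchoring fibrils, had 2.52 to 7.62 CPM and passed in no genotype comparison.

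The 250 bases before the RefSeq start were read for the 4 described genes with the largest log2 difference between the knockdowns, so that the sequence upstream of the most divergent members can be seen. All are on the plus strand of GRCm38.p6: Col11a1 at chr3:114030290-114030539, Col23a1 at chr11:51289670-51289919, Col25a1 at chr3:130180595-130180844 and Col8a2 at chr4:126286544-126286793. Capitals mark a match to the E-box core CANNTG, the site type read by clock and myogenic basic helix-loop-helix factors.
Col11a1: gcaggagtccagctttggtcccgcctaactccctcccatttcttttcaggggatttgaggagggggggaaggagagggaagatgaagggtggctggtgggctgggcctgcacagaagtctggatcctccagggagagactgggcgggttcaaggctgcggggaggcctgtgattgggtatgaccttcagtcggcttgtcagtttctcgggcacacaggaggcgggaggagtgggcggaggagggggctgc
Col23a1: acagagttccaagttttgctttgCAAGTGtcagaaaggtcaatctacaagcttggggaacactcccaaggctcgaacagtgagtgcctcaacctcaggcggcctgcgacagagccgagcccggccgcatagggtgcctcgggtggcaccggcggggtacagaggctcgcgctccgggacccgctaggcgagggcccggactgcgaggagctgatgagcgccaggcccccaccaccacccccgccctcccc
Col25a1: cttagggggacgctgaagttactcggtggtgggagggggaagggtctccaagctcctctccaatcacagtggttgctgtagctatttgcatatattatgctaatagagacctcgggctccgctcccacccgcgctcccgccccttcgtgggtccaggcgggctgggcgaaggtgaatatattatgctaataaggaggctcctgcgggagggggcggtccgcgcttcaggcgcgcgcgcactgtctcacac
Col8a2: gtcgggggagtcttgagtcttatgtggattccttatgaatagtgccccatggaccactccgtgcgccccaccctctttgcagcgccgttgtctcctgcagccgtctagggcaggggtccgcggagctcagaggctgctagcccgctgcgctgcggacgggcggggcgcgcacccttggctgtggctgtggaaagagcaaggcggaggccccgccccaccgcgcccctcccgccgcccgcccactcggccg
The only capitals are CAAGTG in Col23a1; the other 3 windows hold no CANNTG. The Col25a1 window lies 49344 bases inside the GENCODE gene, at a different annotated start. RefSeq windows were at hand for 23 of the 27 described genes. The clock E-box CACGTG, which is a special case of CANNTG, was in 0 of the 23, against 6.86% of 27025 genes with a window. CANNTG was in 52.2% of the 23 and 69.3% of all, and GGGCGG, the core of the GC box, in 69.6% and 35.4%. TATAAA was in 13.0% and 14.3%. Both strands were searched, and these are descriptions of letters in the windows only.

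Over differentiation, more collagen genes rose than fell. From day 0 to day 3, 22 of the 29 tested passed, against 51.1% of all genes. The 19 that were higher compare with 25.4% of all genes, and the 3 that were lower with 25.7%. From day 3 to day 5, 17 passed against 27.9% of all genes, 15 of them higher against 14.7% and 2 lower against 13.2%. From day 0 to day 5, 25 passed against 56.2%, with 22 higher against 28.3% and 3 lower against 27.9%. The median log2 change of the 29 was 1.25 by day 3 and 1.91 by day 5. Of the 5 fibroblast markers tested, Dpt, Lum and Pi16 also rose from day 0 to day 3, Dpt by 5.07 (SE 0.23) and Pi16 by 4.22 (SE 0.29), while Fbln1 fell by 2.25 (SE 0.14) and Pdgfra fell too. Dpt had 2.49, 66.7 and 121 CPM in control. The part of these markers in the rise of the collagens was not tested. Of the 27 described genes, 12 were higher at both steps: Col1a1, Col1a2, Col3a1, Col5a1, Col24a1, Col4a5, Col6a3, Col12a1, Col23a1, Col25a1, Col8a1 and Col8a2. A further 5 were higher at the first step and did not pass at the second (Col5a3, Col27a1, Col6a1, Col6a2 and Col15a1). Col11a1 and Col5a2 passed only at the second step, upward, and Col4a1, Col11a2 and Col14a1 passed at neither.

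All 10 fibrillar genes were higher at day 5 than at day 0, with a median log2 change of 1.68. Col5a1 rose by 1.93 (SE 0.11), Col1a1 by 1.94 (SE 0.14), Col3a1 by 1.62 (SE 0.16) and Col1a2 by 0.84 (SE 0.09), each with an adjusted p of at most 5.43e-05. Col11a2, with at most 18 counts in a library, had the highest adjusted p of the 10 (log2 1.24, SE 0.41, adjusted p = 0.0283), and its call was lost when the day 0 or day 5 library of either knockdown was omitted. The ratio of Col5a1 to Col5a2 counts moved from 0.648 at day 0 to 1.42 at day 5 in control, from 0.703 to 1.93 in the Cry1 knockdown and from 0.653 to 2.10 in the Cry2 knockdown. Type IV genes split. Col4a5 rose by 1.97 (SE 0.09, adjusted p = 2.75e-07), Col4a2 fell by 0.45 from day 0 to day 3 (SE 0.10, adjusted p = 0.00526), and Col4a1 passed at neither step. The type VI genes rose together by day 3, Col6a2 by 2.28 (SE 0.19), Col6a1 by 1.49 (SE 0.18) and Col6a3 by 1.28 (SE 0.17). Col8a1 rose by 2.69 (SE 0.14) by day 5. Against this, Col16a1 and Col7a1 fell at the first step, by 0.46 and 1.28. Col7a1 was then higher at the second step by 0.83 (adjusted p = 0.0441), a call kept in 2 of the 9 fits, those without the control of day 0 or of day 5. Col17a1 and Col18a1 fell at the second step, by 0.92 and 0.63. Calls that held with each library left out in turn were 18 of 20 on described genes at the first step, without Col12a1 and Col16a1, and 6 of 17 at the second, the latter being Col1a1, Col5a1, Col11a1, Col4a5, Col12a1 and Col25a1. From day 0 to day 5, 19 of 23 held, without Col4a2, Col11a2, Col17a1 and Col18a1.

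**Figure D4:**
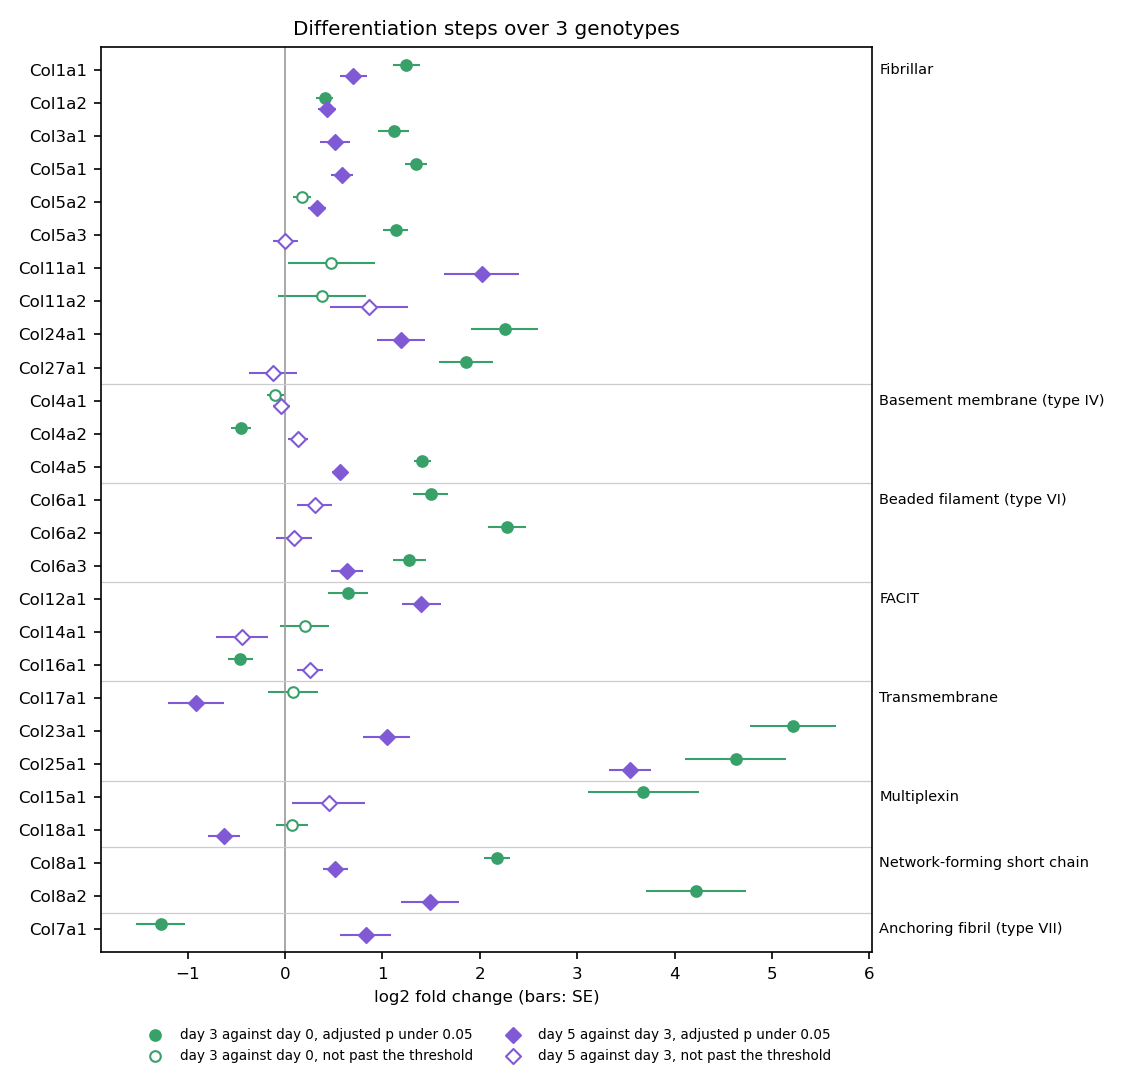
Log2 fold change of each described collagen gene from day 0 to day 3 (circles) and from day 3 to day 5 (diamonds), over 3 genotypes, with bars of 1 SE; filled marks passed an adjusted p of 0.05. Most filled marks lie right of 0; first-step values of Col25a1, Col8a2, Col15a1 and Col23a1, which had few counts at day 0, depend on the prior count of the fit.

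Whether the response to differentiation (days 3 and 5 together against day 0) differed between a knockdown and control was tested in a fit of genotype by stage, which leaves 2 residual degrees of freedom. In the Cry2 knockdown 0 of 34 collagen genes passed in edgeR's quasi-likelihood test, against 0.0367% of all genes (0.00735% higher and 0.0294% lower). Of the 34, 4 had an unadjusted p below 0.05, as did 818 of all 13608 genes tested. In the Cry1 knockdown 0 of 34 passed, against 0% of all genes, and 3 had an unadjusted p below 0.05, as did 670 of 13608 genes. DESeq2 called 0 and 1 of the 34 in the Cry2 and the Cry1 knockdown, against 10 and 15 of all 13608 genes. The gene it called is Col6a1, whose response was larger in the Cry1 knockdown by 1.02 (DESeq2 adjusted p = 0.032); in edgeR the difference was 1.01 (SE 0.16, adjusted p = 0.279). Col6a2 had 0.96 (adjusted p = 0.318) in the Cry1 knockdown and 0.90 (SE 0.16, adjusted p = 0.417) in the Cry2 knockdown. Each of these rests on the single control library of day 0. Col23a1 in the Cry2 knockdown had 3.27 (SE 0.99, adjusted p = 0.797), on at most 4 counts per library at day 0.

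Genes that fold, process, degrade and bind collagens are read here beside the same shares of all genes, 2.67% for the Cry1 and 0.0840% for the Cry2 knockdown against control. Of 18 folding and modification genes tested, 1 passed against control, the prolyl 3-hydroxylase family member P3h4 in the Cry1 knockdown (log2 -0.44, SE 0.09, adjusted p = 0.0422). Of 12 genes for procollagen processing and cross-linking and 11 for breakdown and its inhibitors, 0 passed against control in edgeR. For the Cry2 knockdown 2 and 3 of them had an unadjusted p below 0.05, as did 1604 of all 13094 genes. DESeq2 called 0 of them, against 85 of 13094. For the Cry1 knockdown 4 and 1 had an unadjusted p below 0.05, as did 2492 of 13094 genes. DESeq2 called 1 of these genes, the cross-linking enzyme Lox, against 319 of 13094. Between the knockdowns Bmp1, the procollagen C-proteinase, and Timp2, a metalloproteinase inhibitor, were higher in the Cry2 knockdown by 0.30 (adjusted p = 0.0498) and 0.65 (adjusted p = 0.0167). Of 10 collagen receptors, Adgrg1, an adhesion receptor that binds type III collagen, was higher in the Cry2 knockdown than in control by 1.10 (SE 0.12, adjusted p = 0.0217). It had 21.3, 60.3 and 25.6 CPM in control and 58.0, 114 and 48.9 CPM with Cry2 knocked down. The Adgrg1 call was lost when the day 5 Cry2 knockdown library was left out, where 0 of 13021 genes passed against control. Among the 13 basement membrane partners of type IV collagen, Nid2, the linker nidogen, was lower in the Cry2 than in the Cry1 knockdown (-0.98, SE 0.13, adjusted p = 0.00464). From day 0 to day 3, when 25.4% of all genes rose and 25.7% fell, 12 of the 18 folding genes rose, among them the collagen chaperone Serpinh1, and Crtap fell. In the same step 4 of the 12 processing genes rose and 4 fell, as did 4 and 4 of the 13 basement membrane partners, shares near those of all genes. Of the 10 receptors, 6 rose and 1 fell, and of the 11 breakdown genes, 6 rose and 2 fell.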

How the data were processed

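RNA from 9 libraries was sequenced after preparation with TruSeq RNA v2 kits, per the labels, which do not mark strand. The deposited values are raw counts per gene, made by the authors with CASAVA 1.8, HISAT2 2.0.2 and featureCounts 1.4.6 (Subread) on mm10, per the submitters' processing notes; the annotation release and strand setting are not given in the sources used here. Totals were 4731020 to 6412279 counts, so 3 counts equal 0.440 to 0.635 CPM. Symbols and gene models came from GENCODE M21, which named 47223 of 47728 identifiers, and promoter windows from RefSeq on GRCm38.p6. Genotypes and days were compared with edgeR 4.0.16 (R 4.3.3): TMM scaling, a filter on low counts (13094 genes kept), genotype plus day as terms, a quasi-likelihood F test and Benjamini-Hochberg adjustment over all genes, threshold 0.05. A second fit of genotype by stage kept 13608 genes. SE is the size of the log2 fold change divided by the root of F. The fits were also run on simulated counts, drawn independently for each gene and library. That run does not give the error rate for these single cultures. The members and the lists of related genes were chosen with earlier results of these data known. Named genes are those called between genotypes and the 2 highest per class. Alternatives were RLE scaling, other filters, DESeq2 1.42.0, fewer libraries and no day term.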

Additional observations from a re-analysis of the deposited data

How the results depend on the processing

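The count of collagen genes called moved with the processing in the genotype comparisons. For the Cry2 knockdown against control it was 2, against 11 with no filter on low counts, 7 with DESeq2 (Col23a1 higher, and Col1a1, Col1a2, Col4a1, Col4a2, Col12a1 and Col8a2 lower), 1 with only the 6 libraries compared, 0 without the day term and 0 to 2 with 1 library left out. For the Cry1 knockdown against control it was 7, against 0 without the day term and 0 to 7 with 1 library left out. Between the knockdowns it was 16, against 0 without the day term and 8 to 16 with 1 library left out. From day 3 to day 5 it was 17, against 8 to 16 with 1 library left out. In the comparison of responses, the count for the Cry2 knockdown was 0, against 1 with no filter and 0 to 1 with 1 library left out, and for the Cry1 knockdown 0, against 2 with no filter, 1 with DESeq2 and 0 to 2 with 1 library left out. The cause was not tested. No direction of a called value reversed in the settings run.

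Over all genes, the Cry2 knockdown against control had 11 calls, against 316 with no filter, 85 with DESeq2, 6 with a filter of 1 CPM in 3 libraries, 5 with 6 libraries and 0 without the day term. The Cry1 knockdown had 349, against 919 with no filter, 203 with 6 libraries and 0 without the day term. The comparison of the knockdowns had 1038, against 660 with DESeq2 and 0 without the day term, and day 5 against day 3 had 3653, against 2382 with DESeq2. The response comparisons had 5 and 0, against 48 and 72 with no filter and 10 and 15 with DESeq2. With 1 library left out, the calls over all genes were 0 to 17 for the Cry2 knockdown against control. They were 27 to 366 for the Cry1 knockdown against control, 258 to 1137 between the knockdowns and 2045 to 3739 for day 5 against day 3. The labels give no replicate numbers, so libraries could be paired across genotypes only by day. Libraries of the same day are matched across genotypes by the day term, without which 0 collagen genes passed between genotypes. With only members of 10 counts at every day, a setting chosen after seeing the data, 11 of 20 were lower in the Cry2 knockdown at all 3 days, against 15 of 27. The fit by stage could not be made without any one of the day 0 libraries. Depth limits the genes near the floor, among them Col11a2, Col15a1 and, at day 0, Col23a1, Col25a1 and Col8a2.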

Other observations

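Of the 44 collagen genes, 17 fell short of 10 counts in 3 libraries, and Col6a6, Col9a1 and Col9a2 had 0 counts in every library. The gene just inside the limit was Col11a2, with a third-highest count of 12 and a highest of 18. Just outside were Col13a1 and Col26a1, each with a third-highest count of 9 and highest counts of 16 and 18. Both were still tested, and Col26a1 was lower in the Cry2 than in the Cry1 knockdown (log2 -2.11, edgeR adjusted p = 0.0335). Its levels were 0.147, 1.01 and 1.67 CPM in control, 0.593, 2.99 and 2.47 CPM with Cry1 knocked down and 0.161, 0.423 and 0.756 CPM in the Cry2 knockdown, the last at or near the floor at each day.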
